A study of Mus musculus with 4 samples.

Results

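The natural killer (NK) cell lectin-like receptors, encoded by the Klr genes, were described together with Ncr1, which encodes NKp46, and with the 3 adaptors Fcer1g, Hcst and Tyrobp, in small intestinal group 3 innate lymphoid cells (ILC3s) with and without Brg1. The members were all protein-coding genes whose symbol starts with Klr, which gave 26 genes, plus these 4 genes. This made 30 of the 53379 genes in the deposited expression table, chosen by name and not by any measured value. Earlier results of these data were known when the choice was made. RNA was sequenced from ILC3s of mixed bone marrow chimeras. Equal numbers of bone marrow cells came from Thy1.2/1.2 Rag1-/-Smarca4f/f donors (Brg1-sufficient) and from Thy1.1/1.2 Rag1-/-Smarca4f/f donors in which Smarca4 was deleted (Brg1-deficient), and were mixed in sublethally irradiated Rag2-/-Il2rg-/- recipients. After 6 to 7 weeks the 2 origins were sorted apart as Thy1.2-high, CD45-low cells by Thy1.1, with 2 libraries per group. All donor cells thus lacked Rag1 and carried the floxed alleles of Smarca4, which encodes Brg1, and the recipients lacked lymphocytes of their own. The Thy1.1 marker was carried by the Brg1-deficient donor in both libraries, so genotype and congenic marker cannot be told apart here. No NKp46 gate was used in the sort.

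NK receptors read the state of other cells through pairs of activating and inhibitory proteins. The Klra (Ly49), Klrc with Klrd1 (NKG2 with CD94), Klrk1 (NKG2D), Klrb1 (NKR-P1), Klre1, Klri and Klrg proteins have a C-type lectin-like domain, and their ligands include classical and nonclassical MHC class I, stress-induced MHC-like proteins, cadherins and the Clec2 lectins. NKp46 is an immunoglobulin-like activating receptor. The activating receptors have no signalling tail of their own and depend on the adaptors DAP12 (Tyrobp), DAP10 (Hcst) and the Fc receptor gamma chain (Fcer1g), whereas the inhibitory receptors recruit phosphatases such as SHP-1. In the gut, NKp46 marks an ILC3 subset that expresses T-bet and shares many genes with NK cells and ILC1s.

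All values below are FPKM as deposited, which scale fragments to transcript length and library size, and levels of different genes are compared on this per-length scale. Fold changes are differences of log2(FPKM + 1), Brg1-deficient minus Brg1-sufficient, which understate the change of genes with low FPKM. Errors are standard errors (SE) from limma, a linear model whose spread is shared across genes, over the 14739 genes whose mean passed 1 FPKM in a group. Adjusted p-values are by Benjamini-Hochberg over these genes. With 2 libraries per group the exact two-sided permutation p of 1 gene is at least 0.333. The distributions of the 4 libraries were almost equal as deposited, and the depth of the libraries is unknown. Smarca4, the targeted gene, measured 17.1 and 16.7 FPKM with Brg1 and 9.98 and 9.03 FPKM without it, or 56.2% of the Brg1-sufficient mean (log2 fold change -0.77, SE 0.164, adjusted p = 0.153 by limma). All 12 ILC3 markers were above 1 FPKM in at least 1 library. Of 9 rows of NK cell markers, 5 passed 1 FPKM in any library, with Eomes at 0.41 FPKM or less in every library. In both Brg1-deficient libraries 4 of these 9 rows were lower and 1 was higher, where 20.2% and 24.4% of all genes tested were. Not all of the 9 rows were high enough to be tested. Given with Brg1 first, Prf1 was at 3.32 and 4.17 against 0.45 and 0.36 FPKM, Itga2 was at 0.03 and 0.74 against 1.63 and 2.18 FPKM, and Gzmb overlapped at 51.5 and 149 against 62.0 and 25.7 FPKM. One library stood apart. Brg1-sufficient library 1 had a summed level of 13 ILC2 markers of 634 FPKM, against 289 FPKM in Brg1-sufficient library 2 and, in the cells without Brg1, 136 and 165 FPKM. The 11 T cell markers, in donors without Rag1, summed to 435 and 270 FPKM with Brg1 and to 121 and 113 FPKM without it. Members whose values rest on library 1 are given with and without it. In bulk RNA, fewer cells of a type and less RNA per cell cannot be told apart.

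Of the 30 members, 18 had a mean above 1 FPKM in a group and were tested. Klra7 and Klre1 passed this limit through the Brg1-sufficient group alone, which fixed the direction of their difference in means but not its size. Ncr1 was the member with an adjusted p under 0.05, and it was lower in Brg1-deficient ILC3s. Over all genes tested, 0.224% were lower and 0.0814% higher by this rule. At an unadjusted p under 0.05 from limma, 5 members were lower (Ncr1, Klrg1, Klri2, Klre1 and Klra7), where 6.47% of all genes tested were, and 3 were higher (Klrb1a, Klrk1 and Klrb1), where 6.12% were. Of the 16 members above 1 FPKM in both groups, which leaves out Klra7 and Klre1, 3 were lower and 3 higher. No share was computed over all genes above 1 FPKM in both groups, so counts of these 16 members have no like background. By the criteria of the study for its gene lists (p under 0.05, adjusted p under 0.4, a group mean over 5 FPKM and a log2 ratio of the means beyond 0.5), Ncr1, Klrg1 and Klri2 were lower and Klrb1a, Klrk1 and Klrb1 were higher among the 14 members with a mean above 5 FPKM. The same criteria took 7.08% of all genes at that level as lower and 6.25% as higher. Both Brg1-deficient libraries lay below both Brg1-sufficient libraries for 10 members and above them for 3, and for all genes tested these shares were 20.2% and 24.4%. Without Klra7 and Klre1 the counts were 8 and 3 of 16. The median log2 fold change was -0.34 over the 18 members, -0.30 over these 16 and 0.03 over all genes tested.

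**Figure D1:**
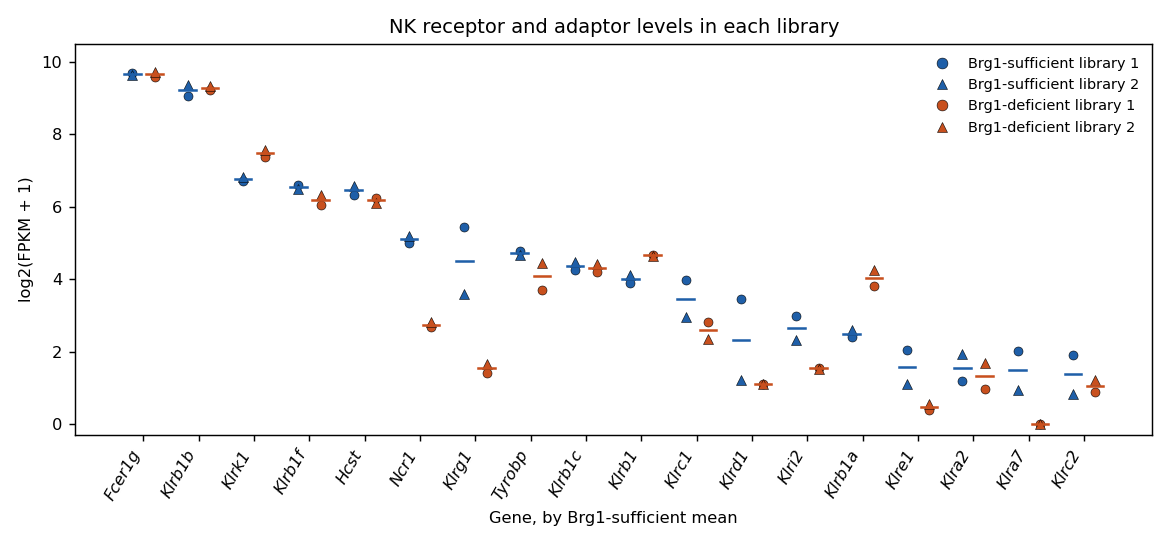
Levels of the 18 tested members, as log2(FPKM + 1), in each library, with Brg1-sufficient libraries in blue, Brg1-deficient libraries in orange and short lines at the group means of the log2 values. Ncr1 and Klrg1 lie lower and Klrk1, Klrb1 and Klrb1a lie higher in both Brg1-deficient libraries, while Fcer1g, Klrb1b and Klrb1c overlap.

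The genomic setting and the start regions of 3 members are shown first, since Ncr1 was lower, Klrk1 was higher and Klrb1b, the Klr gene with the highest level, overlapped between the groups. All 26 Klr genes lie on chromosome 6 of GRCm38 in GENCODE M21. From Klrb1a to Klra2, 24 of them lie within the NK gene complex at chr6:128609227-131247362, a stretch of 2638.1 kb. Klrg1 lies 6.34 Mb before it, and Klrg2 lies elsewhere on the chromosome. Ncr1 (ENSMUSG00000062524) is at chr7:4337724-4345164 on the plus strand, Klrk1 (ENSMUSG00000030149) at chr6:129610323-129623864 on the minus strand and Klrb1b (ENSMUSG00000079298) at chr6:128813706-128826331 on the minus strand. The 150 bases before the outermost start of each gene in RefSeq or GENCODE, 5′ to 3′ on the gene's own strand, were taken from the RefSeq promoter sequences of GRCm38.p6, at chr7:4337565-4337714, chr6:129623904-129624053 and chr6:128826332-128826481, respectively. Capitals mark matches on either strand to TGTGGT, the core letters bound by Runx factors, and to AGGTCA, the core bound by ROR factors.
Ncr1: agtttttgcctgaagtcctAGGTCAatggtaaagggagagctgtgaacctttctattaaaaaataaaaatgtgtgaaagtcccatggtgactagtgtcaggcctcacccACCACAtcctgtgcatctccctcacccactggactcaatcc
Klrk1: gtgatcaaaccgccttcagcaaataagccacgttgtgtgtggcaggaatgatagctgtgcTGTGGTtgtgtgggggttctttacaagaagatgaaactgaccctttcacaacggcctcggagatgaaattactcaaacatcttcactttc
Klrb1b: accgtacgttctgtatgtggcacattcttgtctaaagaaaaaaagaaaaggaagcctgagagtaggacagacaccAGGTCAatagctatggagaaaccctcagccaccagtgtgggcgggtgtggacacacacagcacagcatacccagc

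RefSeq start regions were found for 26 members. In the 250 bases before the start, TGTGGT was present in 9 of the 26 (Klra1, Klrb1a, Klrb1c, Klrc1, Klrc2, Klrc3, Klre1, Klrk1 and Ncr1) and in 14.045% of the 32851 start regions in the whole table. AGGTCA was present in 3 (Klrb1a, Klrb1b and Ncr1) and in 14.024% of all start regions. The T-box letters TCACACC were in none of the 26 windows and in 3.33% of all. The genes with TGTGGT included members with lower, higher and overlapping levels. These matches are letters in a window and were not tested as binding sites.

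Ncr1 was the member that passed the test over all genes. NKp46 signals through Fcer1g and CD3 zeta and marks the NKp46+ subset of ILC3s. Ncr1 measured 31.3 and 35.5 FPKM with Brg1 and 5.37 and 6.02 FPKM without it. The groups did not overlap and the libraries within each group were close. The Brg1-deficient mean, 5.70 ± 0.460 FPKM (SD, n = 2), was 17.0% of the Brg1-sufficient mean of 33.4 ± 2.98 FPKM (SD, n = 2). On the log2 scale the difference was -2.36 (SE 0.17, adjusted p = 0.033 by limma). Leaving out any 1 library gave values between -2.45 and -2.27, with adjusted p-values by limma between 0.106 and 0.375, so the call was not made in a fit without 1 library. Nor was it made with all genes tested regardless of level (adjusted p = 0.0792 by limma) or without the trend of spread on level (adjusted p = 0.124 by limma).

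Klrg1 was lower in both Brg1-deficient libraries, and the size of its fold change rested on Brg1-sufficient library 1. KLRG1 (ENSMUSG00000030114, chr6:122270596-122282882) is an inhibitory receptor for cadherins that is found on mature NK cells and on many ILC2s. It measured 42.2 and 11.04 FPKM with Brg1 and 1.64 and 2.19 FPKM without it. Each Brg1-deficient library lay below each Brg1-sufficient library, which themselves differed 3.82-fold. This gave a log2 fold change of -2.97 (SE 0.594, unadjusted p = 0.00332, adjusted p = 0.14 by limma). Without Brg1-sufficient library 1 it was -2.05 (unadjusted p = 0.00862, adjusted p = 0.254 by limma), and without Brg1-sufficient library 2 it was -3.89. Markers of ILC2s other than Areg and Nmur1 showed the same order. Of the 13 ILC2 markers, 12 were lower in both Brg1-deficient libraries, where 20.2% of all genes tested were. Il13, among the 12, was too low to be tested, and Gata3 was close, at 183 and 110 against 74.5 and 105 FPKM. Ccr8 was at 51.7 and 8.41 against 0.23 and 0.24 FPKM and Il17rb at 29.9 and 9.96 against 1.55 and 1.29 FPKM. Areg was at 26.7 and 58.7 against 16.4 and 11.3 FPKM, whereas Nmur1 was at 8.24 and 9.88 against 25.9 and 24.0 FPKM. The part of these markers in the Klrg1 difference was not tested.

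**Figure D2:**
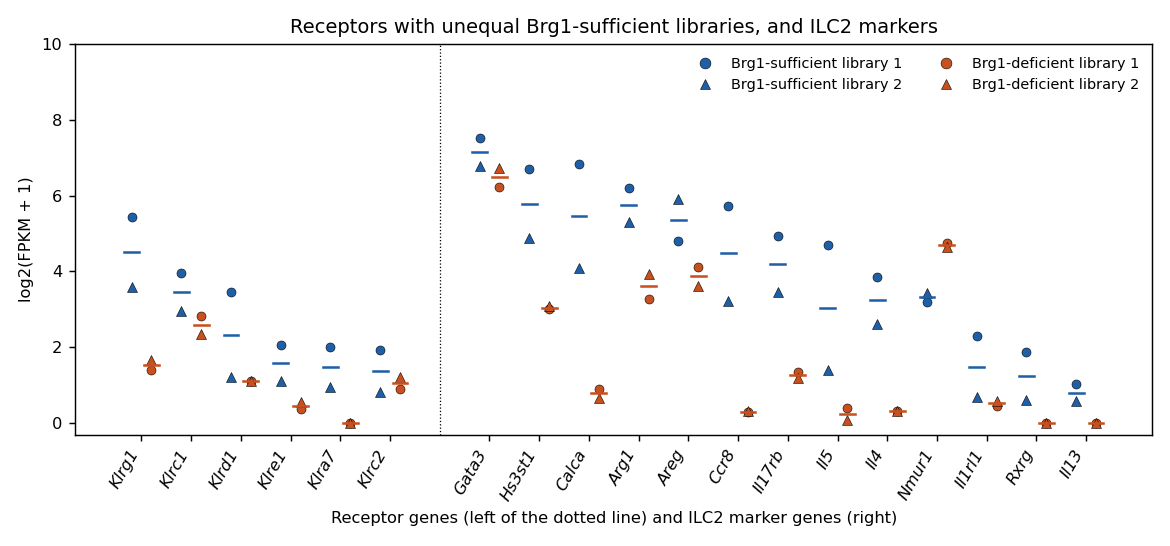
Levels, as log2(FPKM + 1), of the 6 receptor genes with over 2 times the FPKM in Brg1-sufficient library 1 (blue circles) than in library 2 (blue triangles), beside the 13 ILC2 markers, with Brg1-deficient libraries in orange and short lines at group means. Klrg1 at 42.2 and 11.04 FPKM shows the same order of the Brg1-sufficient libraries as Ccr8 at 51.7 and 8.41 FPKM, while Areg and Nmur1 have the opposite order.

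The NKG2 receptors with CD94, which read the nonclassical MHC class I molecule Qa-1, were low in these ILC3s and mostly unequal between the Brg1-sufficient libraries. Klrd1, which encodes the common partner CD94, was at 9.90 and 1.34 FPKM with Brg1 and at 1.16 FPKM in each Brg1-deficient library. The level of 9.90 FPKM in Brg1-sufficient library 1 accounted for most of the difference. Its log2 fold change of -1.23 (SE 0.721, adjusted p = 0.559 by limma) became -0.12 without that library. Klrc1, encoding the inhibitory NKG2A, was at 14.7 and 6.74 against 6.06 and 4.14 FPKM. The groups did not overlap, but the gap between 6.74 and 6.06 FPKM was smaller than the spread within each group. The log2 fold change of Klrc1 was -0.87 (SE 0.384, adjusted p = 0.442 by limma), or -0.36 without Brg1-sufficient library 1. Klrc2, encoding the activating NKG2C, overlapped between the groups, at 2.79 and 0.78 against 0.86 and 1.32 FPKM. The difference was a log2 fold change of -0.32 (SE 0.459), and without Brg1-sufficient library 1 it turned to 0.22. Klrc3, encoding NKG2E, reached 0.9 FPKM at most and was not tested. In all, 6 of the 18 tested members (Klrg1, Klrd1, Klrc1, Klrc2, Klre1 and Klra7) had over 2 times the level in Brg1-sufficient library 1 than in library 2, and only Klra2 had the reverse.

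Klre1 and Klri2 were lower in both Brg1-deficient libraries. The product of Klre1 pairs with that of Klri1, which is inhibitory, or of Klri2, which is activating. Klri2 measured 6.88 and 4.02 FPKM with Brg1 and 1.92 and 1.89 FPKM without it. The Brg1-deficient libraries were nearly equal and lay at 35.0% of the Brg1-sufficient mean. On the log2 scale the difference was -1.11 (SE 0.298, unadjusted p = 0.0116, adjusted p = 0.229 by limma), and -0.79 without Brg1-sufficient library 1. Klre1 was at 3.15 and 1.16 against 0.30 and 0.46 FPKM, a log2 fold change of -1.12 (SE 0.438, unadjusted p = 0.0474, adjusted p = 0.387 by limma) that went to -0.65 without Brg1-sufficient library 1. With log2(FPKM + 0.1) the value for Klre1 was -2.10. Klri1 was at 0.42 FPKM or less in every library and was not tested.

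Klrk1 was higher in both Brg1-deficient libraries. NKG2D (Klrk1) is the activating receptor for the stress-induced ligands of the Raet1, H60 and Ulbp1 families, and signals through DAP10 and, in mice, also DAP12. It measured 105 and 113 FPKM with Brg1 and 165 and 190 FPKM without it. All 4 levels were high, and the lower Brg1-deficient library lay above the higher Brg1-sufficient library. On average the level without Brg1 was 164% of that with it. This gave a log2 fold change of 0.70 (SE 0.143, unadjusted p = 0.00358, adjusted p = 0.143 by limma), which ranged from 0.60 to 0.80 over the fits without 1 library. The gene body of Klrd1 ends 11.5 kb from that of Klrk1, on the other strand. Hcst, which encodes the partner DAP10, was at 79.6 and 95.2 against 75.2 and 68.3 FPKM, a log2 fold change of -0.28 (SE 0.155, adjusted p = 0.537 by limma). The Klrk1 to Hcst ratio of FPKM was accordingly 1.31 and 1.18 in the Brg1-sufficient libraries and 2.20 and 2.78 in the Brg1-deficient libraries, with no overlap, and was not tested.

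The Klrb1 family held most of the summed Klr level, and its fold changes lay on both sides of 0. Summed over the 5 genes, the level was 669 and 793 FPKM with Brg1 and 714 and 785 FPKM without it, which overlap. Klrb1b, whose product is an inhibitory receptor for the Clec2d lectin, made up 62.3% and 70.5% of the summed Klr level in the Brg1-sufficient libraries and 66.3% and 65.0% in the Brg1-deficient libraries. Klrb1b itself was at 536 and 661 against 594 and 643 FPKM, the highest Klr level in every library. The difference was a log2 fold change of 0.05 with a 95% interval from -0.35 to 0.46. Klrb1c, which encodes the NK1.1 antigen, an activating receptor, overlapped as well, at 18.2 and 21.2 against 17.4 and 20.4 FPKM. On the log2 scale the difference was -0.06 with a 95% interval from -0.50 to 0.38.

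Within the same family, Klrb1a and Klrb1 lay higher and Klrb1f somewhat lower. Klrb1a, encoding the activating NKR-P1A, had the most positive fold change of the 18 members. It measured 4.27 and 5.04 FPKM with Brg1 and 13.1 and 18.0 FPKM without it. The groups were far apart, the Brg1-deficient mean being 334% of the Brg1-sufficient mean. This gave a log2 fold change of 1.54 (SE 0.223, unadjusted p = 0.000735, adjusted p = 0.086 by limma), which ranged from 1.32 to 1.75 over the fits without 1 library. Klrb1, also called NKR-P1G, was at 13.8 and 16.5 against 24.6 and 24.2 FPKM, a log2 fold change of 0.66 (SE 0.165, unadjusted p = 0.00908, adjusted p = 0.209 by limma). Its Brg1-deficient libraries were nearly equal and lay above both Brg1-sufficient libraries. Klrb1f, encoding the activating NKR-P1F, was at 96.5 and 89.7 against 65.7 and 79.3 FPKM, with a log2 fold change of -0.36 (SE 0.155, adjusted p = 0.428 by limma) and a 95% interval from -0.75 to 0.03. Gm44511 overlaps Klrb1b and Klrb1c in the annotation, and the counting was not stated to use strand.

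**Figure D3:**
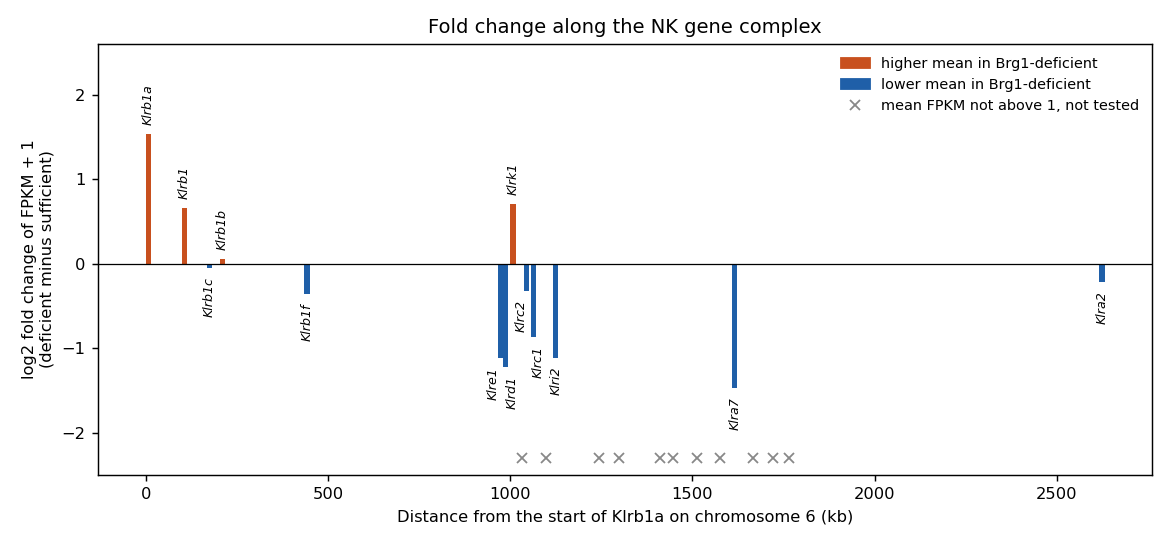
Log2 fold change of FPKM + 1 (bars, vertical axis) of the tested Klr genes among the 24 in the NK gene complex by the distance of the middle of the gene from the start of Klrb1a (horizontal axis, kb), with crosses for the genes that were not tested. Klrb1a at 1.54, Klrb1 at 0.66 and Klrk1 at 0.70 stand above 0, and the tested genes next to Klrk1, Klrd1 at -1.23 and Klrc2 at -0.32, stand at -0.12 and 0.22 in the fit without Brg1-sufficient library 1, which is not plotted.

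The Ly49 genes were at low levels. The Klra products bind classical MHC class I and are mostly inhibitory, with Klra4 (Ly49D) and Klra8 (Ly49H) as activating exceptions. Of the 11 Klra genes, Klra2 and Klra7 had a mean above 1 FPKM. Summed over the 11 genes, the level was 6.95 and 5.46 FPKM with Brg1 and 2.66 and 4.03 FPKM without it. Klra7, the inhibitory Ly49G, measured 3.06 and 0.93 FPKM with Brg1 and was listed at 0 and 0.01 FPKM without it. The difference was a log2 fold change of -1.48 (SE 0.491, unadjusted p = 0.027, adjusted p = 0.324 by limma) and -4.10 with log2(FPKM + 0.1). Without Brg1-sufficient library 1, Klra7 no longer had a mean above 1 FPKM and was not tested. Klra2, the inhibitory Ly49B, which is known from myeloid cells, overlapped at 1.27 and 2.81 against 0.96 and 2.24 FPKM, higher in library 2 of each group. On the log2 scale the difference was -0.22 (SE 0.421, adjusted p = 0.857 by limma). The other 9 Klra genes (Klra1, Klra3, Klra4, Klra5, Klra6, Klra8, Klra9, Klra10 and Klra17) and Klrc3, Klri1 and Klrg2 stayed at 0.9 FPKM or less, and at 0.5 FPKM or less in the Brg1-deficient libraries, and 8 of these 12 genes were listed at 0 in at least 1 library. Klra genes are near-identical copies whose reads the quantification may have split among them, so the levels of single Klra genes are uncertain. Another 4 Klr rows of the table are pseudogenes, are not members, and reached 0.82 FPKM.

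None of the 3 adaptors passed the test, at unadjusted p-values by limma of 0.0581 for Tyrobp, 0.131 for Hcst and 0.97 for Fcer1g. Fcer1g, which encodes the Fc receptor gamma chain used by NKp46, measured 834 and 797 FPKM with Brg1 and 774 and 852 FPKM without it. It had the highest level of all members in every library, and the groups overlapped. This gave a log2 fold change of -0.01 with a 95% interval from -0.35 to 0.34. Tyrobp, encoding DAP12, was far lower, at 26.5 and 24.5 against 12.1 and 20.8 FPKM. The groups did not overlap, but the Brg1-deficient libraries differed widely from each other. The log2 fold change of Tyrobp was -0.65 (SE 0.27, adjusted p = 0.417 by limma), and it went to -0.28 without Brg1-deficient library 1 and to -1.02 without Brg1-deficient library 2. Tyrobp is also strongly expressed by myeloid cells. The 12 myeloid markers summed to 137 and 282 FPKM with Brg1 and to 97.1 and 249 FPKM without it, with Lyz2 at 84.1 and 203 against 64.4 and 192 FPKM, and their part in the levels of Tyrobp and Klra2 was not tested. Tyrobp and Hcst lie tail to tail on chromosome 7 with 126 bases between them.

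**Figure D4:**
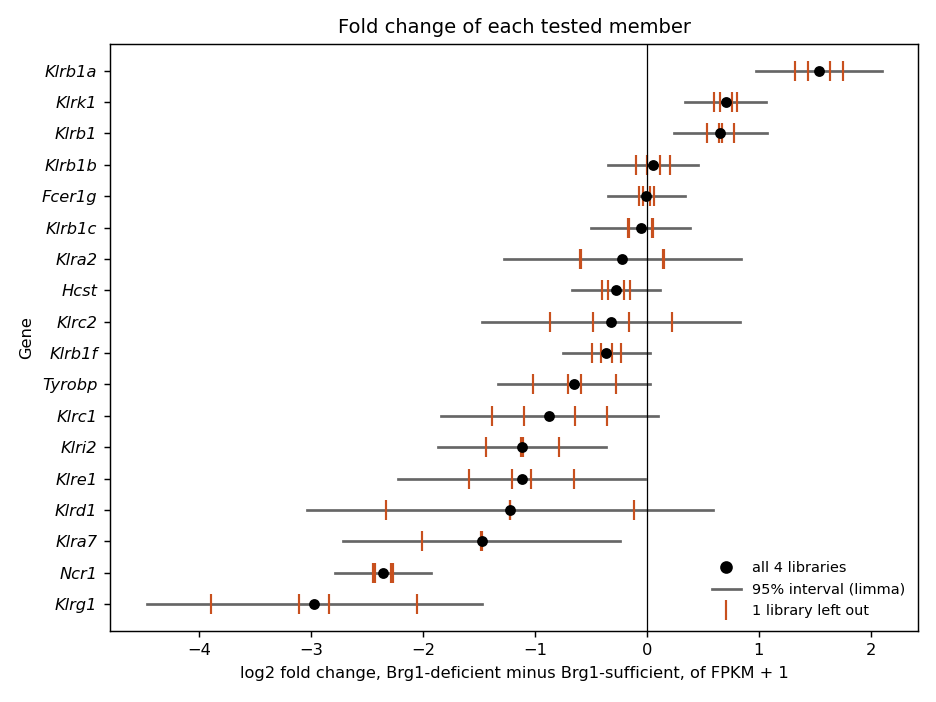
Log2 fold change of FPKM + 1 (horizontal axis) of each tested member (vertical axis), with points for the fit of all 4 libraries, grey lines for the 95% interval from limma and orange ticks for the fits that each left out 1 library. The ticks of Ncr1 lie between -2.45 and -2.27, whereas those of Klrd1 reach from -2.34 to -0.12.

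Other genes of the same pathways were read from lists of NK receptors outside the Klr family, ligands, signalling proteins, transcription factors and effectors. The lists, too, were chosen with earlier results of these data known. Of 23 tested rows of NK receptors outside the Klr family, in which Lilrb4a stands 2 times, 0 had an adjusted p under 0.05 in limma, and 6 were lower and 7 higher at an unadjusted p under 0.05. For this and the next 4 lists the shares over all genes at an unadjusted p under 0.05 are the 6.47% lower and 6.12% higher given above. The median log2 fold change of the NK receptors outside the Klr family was -0.17. Slamf6, among the lower ones, passed 1 FPKM through the Brg1-sufficient group alone, which fixed the direction of its difference in means. The checkpoint receptor Lag3 was at 13.2 and 18.0 against 3.04 and 2.25 FPKM (log2 fold change -2.18, SE 0.242, adjusted p = 0.0548 by limma). Kir3dl1, a killer cell immunoglobulin-like receptor, was at 0.62 and 4.38 against 34.4 and 35.6 FPKM (log2 fold change 3.61, SE 0.554, adjusted p = 0.0925 by limma), and its relative Kir3dl2 was at 0 and 0.30 against 4.42 and 2.67 FPKM, above 1 FPKM through the Brg1-deficient group alone. Both genes were higher in each Brg1-deficient library. For Kir3dl2, entry through that group alone fixed the direction of the difference in means but not its size.

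Of the ligands of these receptors, 10 were tested, 0 had an adjusted p under 0.05 in limma, and 1 was lower and 0 were higher at an unadjusted p under 0.05. That ligand was H60b, a ligand of NKG2D, at 2.22 and 3.82 against 0.73 and 0.12 FPKM. It entered the test through the Brg1-sufficient group alone, which fixed the direction of its difference in means. Ulbp1, another NKG2D ligand, was at 6.25 and 3.82 against 7.98 and 7.32 FPKM, and H2-M3, a nonclassical MHC class I gene, was at 25.6 and 33.5 against 40.8 and 39.2 FPKM. Of 29 tested signalling genes, 0 had an adjusted p under 0.05 in limma, and 3 were lower and 1 higher at an unadjusted p under 0.05, with a median log2 fold change of 0.03. Sh3bp2, among the lower ones, entered the test through the Brg1-sufficient group alone, which fixed the direction of its difference in means. The Src family kinase Lck was at 57.5 and 47.5 against 23.8 and 21.8 FPKM (log2 fold change -1.16, SE 0.165, adjusted p = 0.0843 by limma), and its relative Fyn was at 14.6 and 10.96 against 6.37 and 3.91 FPKM. Sh2d1a, the adaptor SAP, was at 3.96 and 0.95 against 0.48 and 0.54 FPKM, and was not tested without Brg1-sufficient library 1, where its mean was under 1 FPKM.

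Of 22 tested transcription factors of NK cells and NKp46+ ILC3s, 0 had an adjusted p under 0.05 in limma, and 9 were lower and 1 higher at an unadjusted p under 0.05, with a median log2 fold change of -0.35. Tbx21, which encodes T-bet, was at 4.21 and 6.04 against 1.28 and 0.90 FPKM. Zeb2, a factor of NK cell maturation, was at 22.5 and 13.5 against 4.19 and 3.21 FPKM, with a log2 fold change of -1.98 (SE 0.288, adjusted p = 0.086 by limma). Irf8, an interferon regulatory factor, was at 35.1 and 58.8 against 19.2 and 15.1 FPKM. Of 21 tested effector genes of NK cells and ILC1s, Ifng had an adjusted p under 0.05 and was lower, and 8 were lower and 2 higher at an unadjusted p under 0.05, with a median log2 fold change of -0.61. Among the lower ones, Prf1 and Itga1 passed 1 FPKM through the Brg1-sufficient group alone, which fixed the direction of their difference in means. Among the higher ones, the same held for Itga2 through the Brg1-deficient group. The other higher gene, Gzma, was above 1 FPKM in both groups, at 50.8 and 103 against 397 and 218 FPKM. Its log2 fold change was 2.01 (SE 0.422, adjusted p = 0.153 by limma), or 1.51 without Brg1-sufficient library 1. Ifng, which encodes interferon gamma, was at 22.8 and 37.3 against 3.42 and 3.22 FPKM (log2 fold change -2.80, SE 0.267, adjusted p = 0.0386 by limma). Without Brg1-sufficient library 1 its log2 fold change was -3.15 and the call was lost (adjusted p = 0.16 by limma). Nkg7, a granule protein gene, was at 122 and 35.1 against 4.33 and 5.10 FPKM, with the same order of the Brg1-sufficient libraries as Klrg1, and its log2 fold change of -3.55 was -2.66 without Brg1-sufficient library 1. Gzmc, a granzyme gene, had the reverse order, at 53.2 and 156 against 32.2 and 9.99 FPKM. Without Brg1-sufficient library 1, the median log2 fold change was -0.23 for the other NK receptors, 0.06 for the ligands and 0.004 for the signalling genes. It was -0.32 for the transcription factors and -0.45 for the effectors, against 0.005 over all genes tested in that fit.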

How the data were processed

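The authors sequenced ILC3s sorted from the small intestine of chimeric mice with single-end reads, in biological duplicates (2 libraries per genotype). Reads were mapped to GRCm38.p5 with STAR 2.5 and quantified with RSEM 1.2, and the authors deposited 1 FPKM value per gene and library. The sorted values of the libraries are nearly identical: of 13693 ranks with a mean above 1 FPKM, 99.3% differed by less than 1%, a step the methods do not name. A difference in total RNA would not be visible in such values. No counts were used, so no counting interval was computed.

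Libraries were grouped by the genotype and number in their titles. Genes whose mean passed 1 FPKM in at least 1 group entered limma 3.58.1 (lmFit, eBayes with trend) in R 4.3.3 on log2(FPKM + 1), in place of the count test of the authors, which needs read counts. The whole table was fitted and p-values were adjusted over it. The script was tested on simulated data. The replicate numbers come from the titles, nothing says that they pair libraries, and whether each library holds 1 recipient or several was not stated, so p-values measure the spread between these libraries. Alternatives were a pseudocount of 0.1, other filters, limma without trend, the replicate number as a block, 2 scalings, and each library left out. With 1 library left in a group, that library was assumed to vary like the others. Members with a mean above 1 FPKM are named with each value. Of the other lists, genes with an adjusted p under 0.05 and the 3 largest absolute fold changes are named, and markers as examples of their list. Gzma was added so that both higher effectors are named. Start regions came from RefSeq and positions from GENCODE M21. The members, lists and motifs were chosen with earlier results of these data known. Protein sequences were not used here, and the driver of the Smarca4 deletion is not reported here.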

Additional observations from a re-analysis of the deposited data

How the results depend on the processing

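At an adjusted p under 0.05 from limma, 1 member was lower and 0 were higher, and of all genes 33 were lower and 12 higher. With no filter on low FPKM, and likewise in limma without trend, 0 members and 0 lower and 0 higher genes passed, where 2708 and 1868 genes had an unadjusted p under 0.05. With no filter, 44235 genes entered the adjustment in place of 14739. Restricting the fit to group means over 5 FPKM, 73 genes were lower and 41 were higher. In the fit with a replicate block, 2 members were lower (Ncr1 and Klrg1) and 1 was higher (Klrb1a), and of all genes 248 were lower and 150 higher. By the list criteria, 6 members were lower in that fit in place of 3. The share of all genes that met these criteria was not computed for it. Klrg1 and Klrb1a, at log2 fold changes of -2.97 and 1.54, each had an adjusted p of 0.00844 from limma there. Across genes, libraries with the same number deviated from the group mean with a correlation of -0.000386. This does not show whether they share recipients, which the sources do not state, so no pairing was assumed. The cause of these shifts was not tested.

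With each library left out in turn, 0 members were called lower and 0 genes lower or higher in all 4 fits (1267 to 3182 genes had an unadjusted p under 0.05), members lower at an unadjusted p went from 1 to 7, the highest without Brg1-sufficient library 2, members higher at an unadjusted p from 2 to 3, and members by the list criteria from 1 to 5 lower and from 0 to 3 higher. The fits without a Brg1-deficient library gave the lowest of these counts, and also the fewest of all genes at an unadjusted p under 0.05. The most of all genes at that p came without Brg1-sufficient library 2, the fit that also gave the most lower members. Shares of all genes lower or higher were not computed for these fits. The member counts therefore have no like background, and their changes between fits are not read as changes of the members. Log2 fold changes then ranged from -0.0744 to 0.0639 for Fcer1g, from -0.60 to 0.15 for Klra2, from -0.10 to 0.20 for Klrb1b, from -0.165 to 0.0522 for Klrb1c and from -0.87 to 0.22 for Klrc2, and these 5 changed sign. The other 13 members kept their sign in every alternative in which they were tested. Ncr1 stayed between -2.53 and -2.27 in all of them, with an adjusted p from limma of 0.0792 without the filter and 0.124 without the trend. The distributions were almost equal as deposited, so quantile normalization and median scaling could change little and are no separate check. Neither changed any member's side of an adjusted p of 0.05, and under quantile normalization 4 members in place of 5 were lower at an unadjusted p under 0.05. Counting only members above 1 FPKM in both groups, chosen after seeing the data, left 3 lower and 3 higher at that p. Depth is unknown, which limits what can be said of members under 1 FPKM.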
